A study of Danio rerio with 14 samples.

Results

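Focal adhesions are the sites where a cell grips its surrounding matrix. Matrix proteins bind integrins, the transmembrane receptors, whose tails recruit talin, vinculin, paxillin and integrin-linked kinase, and this plaque signals through focal adhesion kinase, Src-family kinases and phosphoinositide 3-kinase (PI3K) and pulls on actin through myosin. In heart muscle the same proteins also sit at the costameres, which tie the sarcomeres to the cell surface. Chromatin accessibility at the genes of this pathway was followed in cardiomyocytes of adult zebrafish by ATAC-seq, in which a transposase cuts and tags open DNA. The members are the peaks whose gene carries the KEGG term Focal adhesion without the term MAPK signaling pathway, less 16 genes left out by name, such as fn1a, itga5, zyx and myl7. They come to 78 of 16610 peaks, at 64 genes, in a table of 8 libraries and 27 of 6339 peaks, at 26 genes, in a table of 6 libraries. All 27 peaks of the second table overlap a member peak of the first by at least 1 base. Peaks carry the name of the gene in the authors' annotation, and whether a peak acts on that gene was not tested. Gene roles are given as known mainly from mammalian cells.

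The 14 libraries form 6 groups, and the series asks how AP-1, the transcription factor built from Fos and Jun proteins, acts in heart regeneration. Regenerating cells were sorted by fluorescence for the reporter gata4:EGFP at 4 days after cryoinjury, a freezing wound to the ventricle, and uninjured control cells were sorted for myl7:nucDsRed. Uninjured hearts that overexpress junba or junbb were taken 7 days after induction, and their cells were isolated on a density gradient with 50000 cells per reaction, against 5000 in every other group. These 4 groups have 2 libraries each and share the table of 8. The other table holds gradient-isolated wound-border cells 4 days after cryoinjury, 3 libraries from A-Fos(+) fish given 0.5 mg/mL 4-hydroxytamoxifen and 3 from A-Fos(-) fish given ethanol. A-Fos is a dominant-negative protein that pairs with Jun and blocks its DNA binding. Each library pools 6 hearts. The injured fish were males and females of 4 to 12 months, and the labels name no promoter for the induced genes, no age for the uninjured groups, and no separate origin of replicates beyond the pools, so p-values measure the spread between these libraries. Regenerating and control cells differ in the reporter sorted as well as in injury, and overexpressing and control cells differ in isolation and cell number as well as in junba or junbb. Within each pair these differences and the named condition cannot be told apart.

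Estimated nuclear reads in peaks ran from 468231 to 1451740 in the table of 8 and from 129391 to 811239 in the A-Fos table, lowest in replicate 3 of A-Fos(+), and a mitochondrial peak held 72.0 to 94.2% of all values. The highest read estimate of each table is the least certain. It came from the library with the poorest fit of the estimate, gata4:EGFP+ replicate 1 (r2 0.665) and A-Fos(-) replicate 1 (r2 0.398). Values are the authors' normalized values, background-corrected reads per peak after scaling. Of 14 cardiomyocyte markers, 11 had peaks in the table of 8, and their 13 peaks summed to 1279 and 1399 in the control libraries, 582 and 614 in the gata4:EGFP+ libraries, 302 and 562 under junba and 286 and 287 under junbb. Of 15 endothelial and endocardial markers, 9 had peaks, and their 11 peaks summed to 115 and 116, 219 and 239, 353 and 361, and 573 and 620 in the same order of groups. Leukocyte markers had peaks at 2 of 8 genes, which summed to 20 and 26 in the controls, 71 and 76 in the gata4:EGFP+ libraries and 18 to 42 under overexpression. Epicardial and fibroblast markers had peaks at 7 of 12 genes. These summed to 234 and 250 in the controls, 273 and 292 in the gata4:EGFP+ libraries, 184 and 223 under junba and 233 and 237 under junbb. Most of the control sums came from the peak at tgfb3, which was lower in regeneration, so the sums say little about the other peaks. Of 5 such peaks tested, 2 were called higher and 1 lower in regeneration, 0 under junba, and 1 higher under junbb. The peak called lower was that of tgfb3, with a log2 difference of -0.73. The other 4 had differences above 0 in regeneration, up to 2.70, and the median of the 5 was 0.84. The 2 higher in regeneration, at col6a1 and col1a2, lie at focal adhesion genes left out by name. The marker lists also share col1a1a and itga2b with the members, and kdrl and myl7 with the genes left out. The marker pdgfra carries both the focal adhesion and the MAPK term. Erythroid and thrombocyte markers had peaks at 2 of 6 genes, which summed to 137 in each control library, 62 and 74 in the gata4:EGFP+ libraries and 24 to 42 under overexpression, and the peak at sptb was called lower in all 3 contrasts with controls. Smooth muscle markers had peaks at 2 of 5 genes, and the peak at smtnb was called lower in the same 3 contrasts. The other, at cnn1b, was not called, with log2 differences of 0.40 in regeneration, -0.45 under junba and 0.05 under junbb. Neural markers had a peak at 1 of 5 genes, elavl4, called higher in regeneration and under junba. No marker gene with a peak was at 0 in all libraries of a group, while the endothelial genes pecam1, tie1 and tek, the leukocyte genes ptprc and mpx, and tcf21 and tbx18 had no peak. The part of these other cell types in the results that follow was not tested, and in such bulk libraries fewer cells of a type and less open chromatin per cell cannot be told apart. Of the 14 cardiomyocyte markers 1 had a peak in the A-Fos table, with values of 17 to 40, so that table hardly checks the labelled cell type.

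Most member peaks lay at promoters. In the table of 8, 51 of 78 were centred within 500 bp of the transcription start site (65.4%, against 69.8% of all peaks with a gene), and the farthest lay 4307 bp away. Of the 27 peaks in the A-Fos table, 19 did (70.4%, against 76.0%). Median widths were 319 bp for the members and 322 bp for all peaks with a gene. Among the peaks with high means over the 8 libraries were those of gsk3b, a kinase that phosphorylates beta-catenin, with 278 (42.1 per 100 bp of peak), pik3r3b, a regulatory subunit of PI3K, with 226 (40.5 per 100 bp), ppp1caa, a catalytic subunit of protein phosphatase 1, with 128 (20.8 per 100 bp), and ptenb, a phosphatase that opposes PI3K, with 117 (14.6 per 100 bp). In the A-Fos table gsk3b, pik3r3b and ppp1caa had means of 134, 134 and 90.0, and the Src-family kinase gene fynb had 62.2. At the other end, 8 member peaks had a mean under 10 and were left out of the tests, so 70 of 78 were tested in the table of 8 and 26 of 27 in the A-Fos table.

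**Figure D1:**
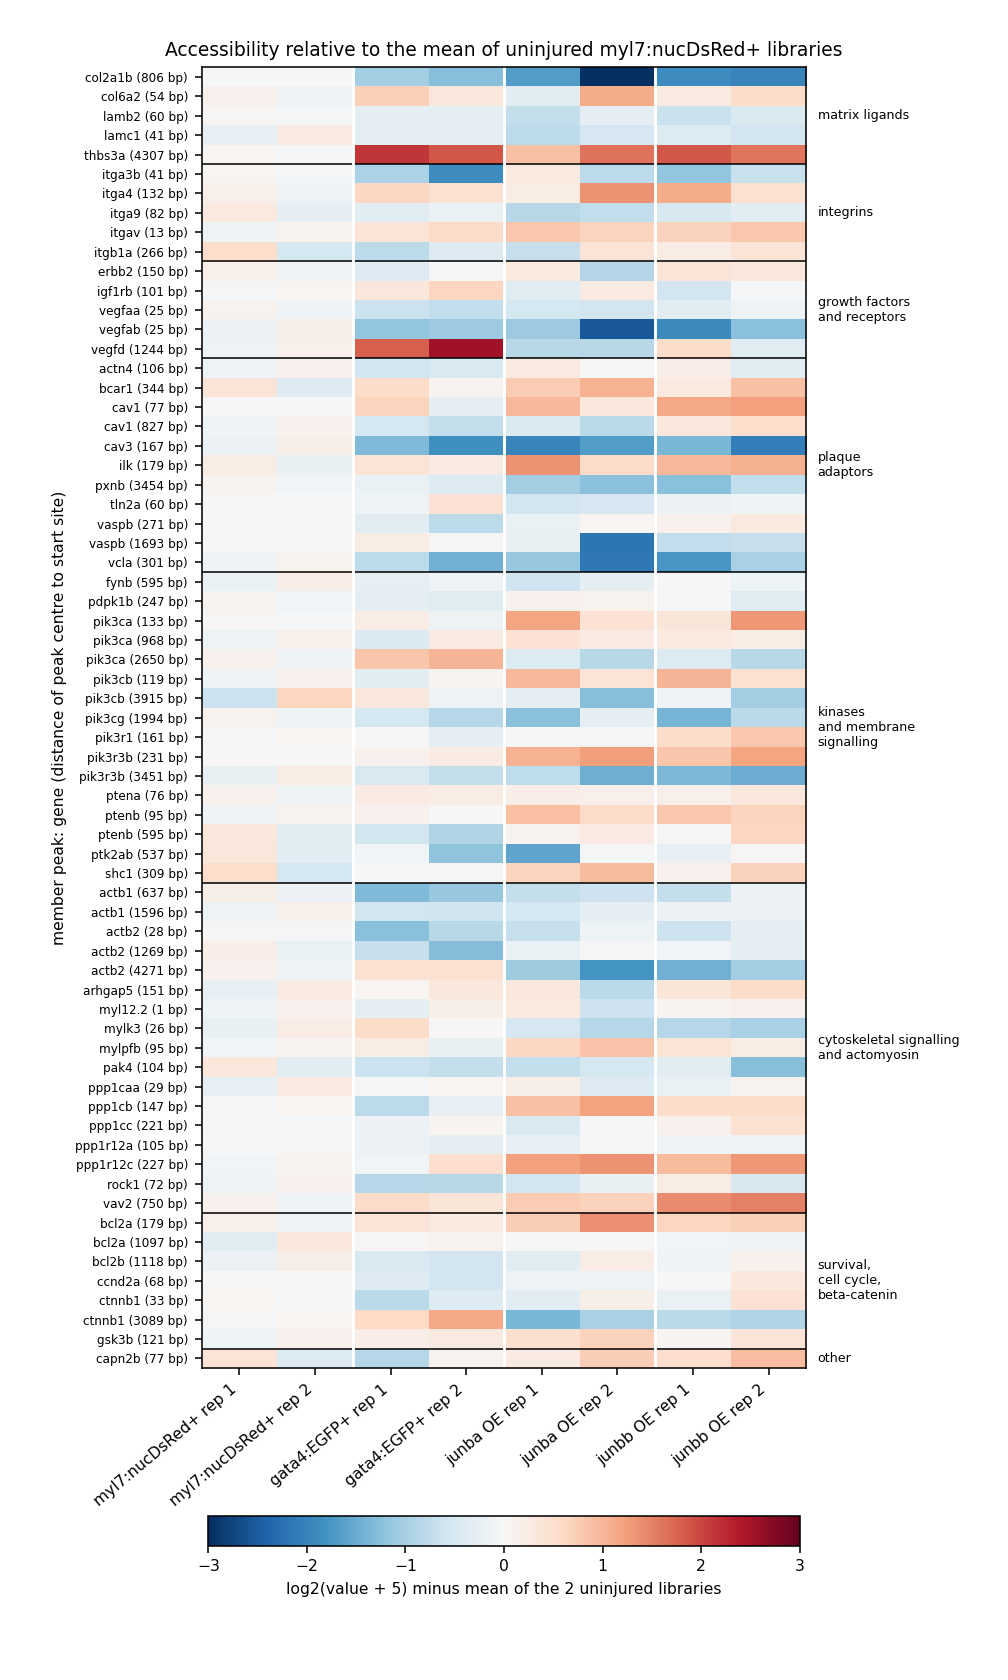
Member peaks of the table of 8 libraries that passed the filter on low values, but for 3 not reported here, in rows ordered by role, and the 8 libraries in columns. Colour gives log2(value + 5) minus the mean of the 2 myl7:nucDsRed+ libraries. Among the rows with larger changes are those of thbs3a, vegfd, cav3, col2a1b, vegfab, vcla and both pik3r3b peaks.

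Few peaks of the pathway were called in regenerating cells, among them rises at thbs3a and vegfd and falls at cav3, itga3b and the beta-actin genes. Of 70 tested member peaks, 2 were higher and 5 lower in gata4:EGFP+ than in myl7:nucDsRed+ libraries (limma on log2(value + 5), two-sided, Benjamini-Hochberg adjusted p under 0.05 over all peaks tested). Over all 14776 tested peaks 12.3% were higher and 6.61% lower, and over the 7872 of these with a gene, as every member has, 5.26% and 7.81%. The median log2 difference was -0.16 for the members, -0.18 for peaks with a gene and -0.06 for all peaks, so the members stood near the peaks with a gene. With libraries scaled to equal totals the split of members became 3 higher and 2 lower, and centred on promoter peaks 4 and 3, while the median of all peaks moved to 0.15 and 0.14. Libraries of the groups did not overlap at 17 members in the higher and 29 in the lower direction, against 29.0% and 32.2% of all tested peaks and 18.6% and 38.1% of those with a gene. For 29 of the 70 members the 95% interval of the difference stayed within 2-fold in either direction.

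The rise with the firmest support was at the matrix gene thbs3a, which encodes a thrombospondin, a secreted glycoprotein that binds matrix and cell surface receptors. Its peak (danRer11, chromosome 16, 42937378 to 42937899) lies 4307 bp from the start, outside the gene body. It held 55 and 44 in the gata4:EGFP+ libraries, 9 and 8 in the controls, 20 and 37 under junba and 44 and 36 under junbb. Every library of the other 3 groups stood above both controls. The log2 change was 2.01 ± 0.37 (SE; adjusted p = 0.000991) in regeneration, and the call held when each library was left out in turn (adjusted p 0.00988 to 0.0407). The other rise was at vegfd, a ligand of vascular endothelial growth factor receptors known for lymphatic growth, in a peak within the gene 1244 bp from its start (chromosome 11, 29915242 to 29915484). Here the gata4:EGFP+ libraries held 26 and 46, the controls 3 and 5, junba 0 and 0, and junbb 8 and 2. The peak was thus near empty outside the regenerating cells, and it passed the filter on low values only through them, so it had to differ. Its log2 change was 2.15 ± 0.47 (adjusted p = 0.00316), was not called at a pseudocount of 1, and could not be tested without either gata4:EGFP+ library because its mean then fell under the filter.

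The 5 lower peaks lay at a caveolin, an integrin and the cytoplasmic actins. At cav3, the muscle caveolin that coats membrane pits at the muscle cell surface, the promoter peak held 22 and 14 in regenerating cells, 55 and 71 in controls, 12 and 16 under junba and 21 and 11 under junbb. All 6 libraries of the other groups were below both controls, and the regeneration log2 change was -1.58 ± 0.39 (adjusted p = 0.00706; lost without the second library of either group, where it reached 0.131 at most). The integrin alpha 3 gene itga3b, a laminin receptor, held 14 and 5 against 33 and 30 (log2 change -1.40 ± 0.44, adjusted p = 0.0284). A peak inside actb1, which encodes cytoplasmic beta-actin, 637 bp from its start, held 32 and 37 against 98 and 77 (-1.22 ± 0.30, adjusted p = 0.00655). The second beta-actin gene, actb2, had lower values at its promoter, 33 and 46 against 88 and 84 (-1.05 ± 0.30, adjusted p = 0.0171), and at 1269 bp, 33 and 20 against 66 and 48 (-0.99 ± 0.33, adjusted p = 0.036). The calls at itga3b and both actb2 peaks were lost with any 1 of the 4 libraries left out, and that at actb1 without either gata4:EGFP+ library or myl7:nucDsRed+ replicate 1. Cardiomyocyte marker peaks were lower in the same contrast, 6 of 13 tested. Endothelial and endocardial marker peaks were called higher at 3 of 10 tested, and the 1 leukocyte peak tested was higher. Epicardial and fibroblast marker peaks were higher at 2 of 5, both at focal adhesion genes left out by name, and lower at 1. The part of these cell types in the rises and falls of regeneration was not tested.

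Next in order of adjusted p, and not called, came rock1, a kinase that promotes myosin contraction (36 and 37 in regenerating cells, 63 and 76 in controls; log2 difference -0.84 ± 0.31, adjusted p = 0.0601), vcla, a vinculin (28 and 16 against 48 and 57; -1.12 ± 0.42, adjusted p = 0.0621) and the vascular growth factor gene vegfab (23 and 25 against 52 and 67; -1.14 ± 0.43, adjusted p = 0.0649). The core plaque genes besides vinculin had smaller estimates, 0.15 at the talin gene tln2a, -0.29 at the paxillin gene pxnb and 0.33 at ilk, which encodes integrin-linked kinase. The focal adhesion kinase gene ptk2ab varied widely between replicates, with 32 and 12 in regenerating and 44 and 26 in control libraries (-0.64). None of the 16 tested peaks of kinase and lipid-signalling genes and none of the 7 of survival, cell cycle and beta-catenin genes was called. The other integrins had values of 11 and 16 against 35 and 14 at itgb1a, 54 and 62 against 37 and 44 at itgav, 36 and 40 against 58 and 37 at itga9, and 24 and 21 against 16 and 12 at itga4. The matrix genes lamc1, lamb2 and col6a2, for laminin and collagen VI chains, had log2 differences of -0.28, -0.29 and 0.53, and col2a1b, a collagen II chain, held 30 and 24 against 66 and 65 (-1.15), without a call.

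**Figure D2:**
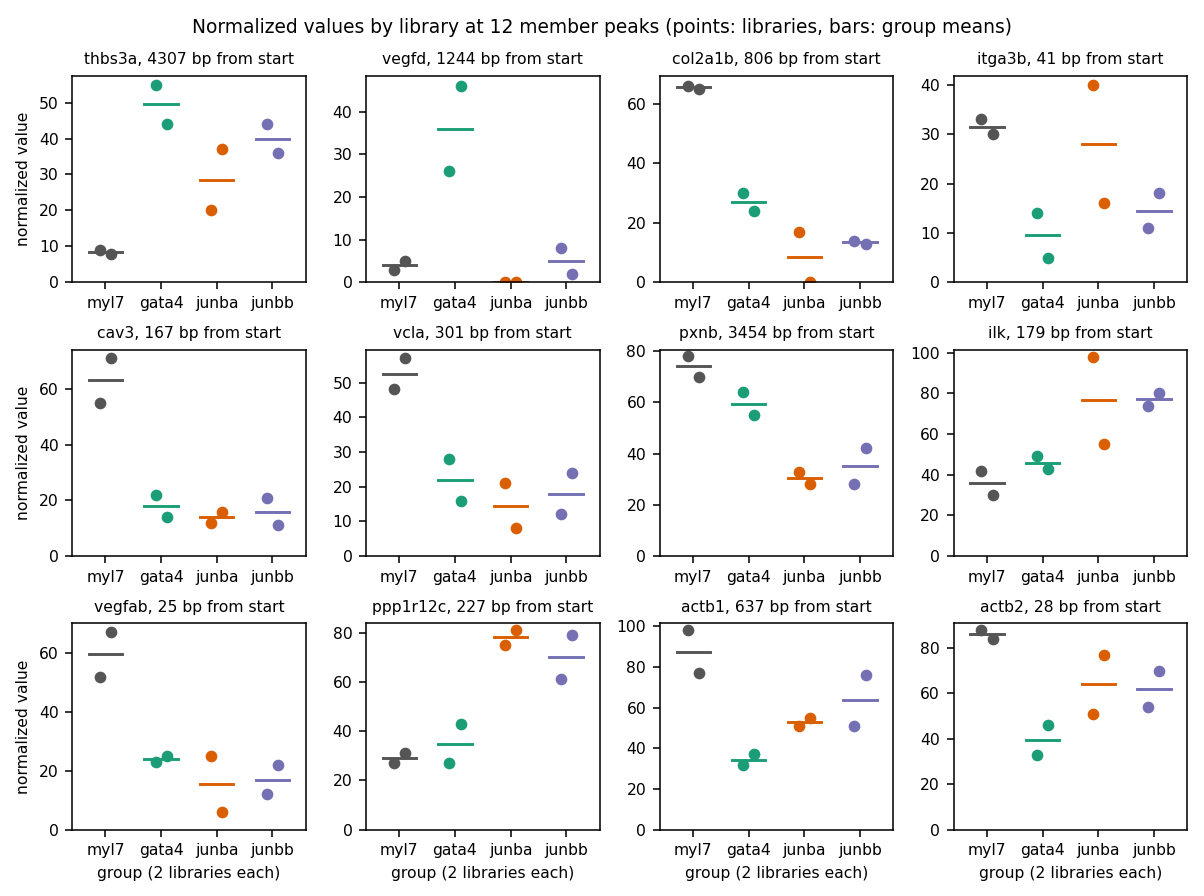
Normalized values (y axis) of 12 member peaks by group (x axis), with points for the 2 libraries of each group and bars for group means. The thbs3a values of all other groups lie above the myl7:nucDsRed+ libraries, and the cav3 values lie below them.

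Overexpression of either Jun gene went with called peaks in both directions: thbs3a and the promoters of ilk, ptenb, pik3r3b and ppp1r12c rose, and peaks at col2a1b, cav3, vegfab, vcla and pxnb fell. Under junba 8 of 70 member peaks were higher and 9 lower than in controls, where 10.3% and 15.9% of all tested peaks were (limma, as above). Under junbb 9 were higher and 8 lower, where 12.6% and 16.3% of all peaks were. Among peaks with a gene, 11.3% were higher and 9.04% lower under junba and 11.5% and 9.08% under junbb. Member medians were -0.11 and 0.04, beside 0.08 and 0.12 for peaks with a gene and -0.07 and -0.02 for all peaks. These contrasts share the 2 control libraries with each other and with the regeneration contrast. The split depends on scaling. Centred on promoter peaks it was 4 higher and 12 lower under junba and 5 and 10 under junbb, and at equal totals 8 and 7, and 10 and 4, with the median of all peaks at -0.21 and -0.17, and at 0.04 and 0.24. No member peak called in the main fit changed sign under any scaling run. Equal totals and centring move all peaks of a contrast by about the same small amount, so they could hardly reverse a called change. Libraries did not overlap at 23 members in the higher and 26 in the lower direction under junba (26.0% and 32.4% of all peaks, 31.1% and 23.8% of those with a gene) and at 24 and 22 under junbb (30.4% and 33.1%, and 34.3% and 24.01%).

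Among matrix ligands, col2a1b had the largest fall. Its peak lies outside the gene body, 806 bp from the start (chromosome 11, 55896 to 56163), and held 17 and 0 under junba and 14 and 13 under junbb against 66 and 65 in controls. No overexpression library reached the controls, and the log2 changes were -2.75 ± 0.49 (adjusted p = 0.000488) and -1.93 ± 0.49 (adjusted p = 0.00485), both kept with each library left out, the second lost at a pseudocount of 1. The thbs3a peak rose under both, by 1.26 ± 0.37 (adjusted p = 0.0145) and 1.73 ± 0.37 (adjusted p = 0.0013). The junbb call held in each omission and the junba call only without junba replicate 1. Laminin and collagen VI peaks were not called, with log2 differences of -0.65 and -0.49 at lamc1, -0.49 and -0.55 at lamb2 and 0.39 and 0.41 at col6a2 under junba and junbb.

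Of the 5 tested integrin peaks 1 was called. The promoter of itgav, the alpha V integrin that binds fibronectin and vitronectin, held 75 and 67 under junba and 68 and 75 under junbb against 37 and 44 in controls. Its log2 change was 0.75 ± 0.28 under junbb (adjusted p = 0.0471, lost with any 1 library left out), and its difference under junba was of the same size, 0.74, without a call. The other integrins had differences of -0.78 and -0.40 at itga9, 0.78 and 0.79 at itga4, -0.25 and -0.93 at itga3b and -0.16 and 0.30 at itgb1a. In the growth factor group the promoter of vegfab, which promotes vessel growth, was lower, with 25 and 6 under junba and 12 and 22 under junbb against 52 and 67. The log2 changes were -1.82 ± 0.43 (adjusted p = 0.004) and -1.58 ± 0.43 (adjusted p = 0.00801), lost without myl7:nucDsRed+ replicate 2 under both, and without junba replicate 2 or junbb replicate 1. Its paralog vegfaa and the receptor genes erbb2 and igf1rb were not called, with differences from -0.55 to 0.35.

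The plaque genes divided. Vinculin, which links talin to actin, was lower at vcla, with 21 and 8 under junba and 12 and 24 under junbb against 48 and 57 (log2 changes -1.64 ± 0.42 and -1.37 ± 0.42, adjusted p = 0.00634 and 0.0163). Paxillin, the scaffold for focal adhesion kinase, was lower at a peak outside the pxnb gene body, 3454 bp from its start, with 33 and 28, and 28 and 42, against 78 and 70 (-1.16 ± 0.31 and -1.002 ± 0.31, adjusted p = 0.0092 and 0.0182). The ilk promoter was higher instead, with 98 and 55, and 74 and 80, against 42 and 30 (0.95 ± 0.31 and 1.01 ± 0.31, adjusted p = 0.0271 and 0.0173). For these 3 genes no overexpression library fell among the controls. Each of these calls was lost in at least 1 omission: under junba without myl7:nucDsRed+ replicate 2 or junba replicate 2 at vcla, without myl7:nucDsRed+ replicate 1 at pxnb, and without myl7:nucDsRed+ replicate 2 or junba replicate 1 at ilk, and under junbb in 3 of 4 omissions each. Of 10 other settings, 3 ended the ilk call under junba, among them centring on promoter peaks. Equal totals ended the vcla and pxnb calls under junbb. The promoter of the talin gene tln2a, with differences of -0.54 and -0.16, and the focal adhesion kinase gene ptk2ab, with -0.81 and -0.10, were not called.

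Of the caveolin genes, cav3 was called lower under both and cav1 higher under junbb at 1 of its 2 peaks. The cav3 promoter fell by 1.84 ± 0.39 (adjusted p = 0.00184) under junba and 1.73 ± 0.39 (adjusted p = 0.00201) under junbb on the log2 scale, from the values given above. The call under junba held in each omission, and that under junbb was lost without junbb replicate 2 (adjusted p = 0.0546 at most over the omissions). The promoter of cav1, the caveolin of endothelial and many other cells, held 33 and 35 under junbb and 29 and 16 under junba against 12 and 12. Its log2 change was 1.20 ± 0.41 under junbb (adjusted p = 0.0315, lost with any 1 library left out) and its uncalled difference under junba 0.65. The second cav1 peak, at 827 bp, held 12 and 8 under junba and 24 and 28 under junbb against 16 and 20, with uncalled differences of -0.62 and 0.43. Endothelial and endocardial marker peaks were higher in the same contrasts, 7 of 10 tested under junba and 9 of 10 under junbb. Of 13 cardiomyocyte marker peaks, 10 were lower and 1 higher under junba, and 11 lower and 1 higher under junbb. Their part in the cav1, cav3 and other changes was not tested. A peak 1693 bp from the start of vaspb, which encodes a VASP protein that elongates actin filaments, held 45 and 8 under junba against 53 and 54, so its fall (-1.20 ± 0.43, adjusted p = 0.0429) rests on junba replicate 2, without which adjusted p was 0.689.

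In the PI3K branch the promoter of pik3r3b rose, from 139 and 140 in controls to 295 and 340 under junba and 253 and 323 under junbb. No library of either group overlapped the controls (log2 changes 1.15 ± 0.21 and 1.01 ± 0.21, adjusted p = 0.000555 and 0.00104). The promoter of ptenb, whose product removes the phosphate that PI3K adds, rose too, from 79 and 92 to 164 and 130, and 152 and 138 (0.74 ± 0.23 and 0.73 ± 0.23, adjusted p = 0.0211 and 0.0201). The pik3r3b calls held in every omission and the ptenb calls in 1 of 4 each, and centring on promoter peaks ended the ptenb calls. Under junbb alone of the 2 contrasts, the regulatory subunit gene pik3r1 was called higher (107 and 128 against 68 and 74; 0.68 ± 0.26, adjusted p = 0.0472) and the immune-type catalytic subunit gene pik3cg lower (35 and 55 against 108 and 94; -1.11 ± 0.32, adjusted p = 0.0123). The pik3r1 call was lost with any 1 library left out and in 5 of 10 other settings, among them a replicate block. The pik3cg call was kept only without junbb replicate 2 and was lost at equal totals. Neither peak differed with a call between junba and junbb.

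In the actomyosin group, 2 peaks of myosin phosphatase genes were higher. The targeting subunit gene ppp1r12c held 75 and 81 under junba and 61 and 79 under junbb against 27 and 31 in controls (log2 changes 1.29 ± 0.31 and 1.13 ± 0.31, adjusted p = 0.00475 and 0.00883). The junba call held in every omission, and the junbb call was lost without myl7:nucDsRed+ replicate 1 or junbb replicate 2. The catalytic subunit gene ppp1cb held 43 and 55 under junba against 20 and 22 (1.05 ± 0.36, adjusted p = 0.0353) and 33 and 33 under junbb, where the difference of 0.55 was not called. The ppp1cb call was kept only without junba replicate 1 and was lost when centred on promoter peaks or with only the groups compared. The other phosphatase genes ppp1r12a, ppp1cc and ppp1caa had differences from -0.23 to 0.29. A peak near vav2, a guanine nucleotide exchange factor, rose under junbb from 12 and 9 to 36 and 39 (1.46 ± 0.37, adjusted p = 0.00541, lost without junbb replicate 2). Among survival genes the promoter of the anti-apoptotic bcl2a (55 and 88 against 35 and 27; 1.06 ± 0.32, adjusted p = 0.0168) and that of gsk3b (319 and 368 against 206 and 251; 0.58 ± 0.21, adjusted p = 0.0488) were higher under junba. Both calls were lost without myl7:nucDsRed+ replicate 2 or junba replicate 2, that of gsk3b also without the other control library. The gsk3b call was lost in 5 of 10 other settings as well, among them a pseudocount of 1 and centring on promoter peaks.

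Position went with direction under overexpression. Among the 47 tested member peaks within 500 bp of a start, 7 were higher and 3 lower under junba and again 7 and 3 under junbb. Among the 23 farther peaks, 1 was higher and 6 lower under junba and 2 and 5 under junbb. All tested peaks with a gene showed a like split, 11.9% of promoter peaks higher and 5.52% lower in both contrasts, and of farther peaks 9.55% higher and 18.0% lower under junba and 10.7% and 18.2% under junbb. The members stood near the background of their position.

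The same gene could hold peaks that moved oppositely, and 12 member genes had more than 1 peak. At pik3r3b the peak inside the gene body, 3451 bp from the start (chromosome 6, 33540570 to 33540865), fell from 104 and 143 in controls to 70 and 41 under junba and 45 and 40 under junbb, while the promoter peak (33536756 to 33537315) rose. The log2 changes of the inner peak were -1.11 ± 0.29 (adjusted p = 0.00778) and -1.42 ± 0.29 (adjusted p = 0.000978), the junbb call held in every omission, and the junba call was lost without myl7:nucDsRed+ replicate 2 or junba replicate 2. At actb2 a peak beyond the gene body, 4271 bp from the start (chromosome 3, 40525298 to 40525767), held 75 and 62 in controls, 30 and 16 under junba and 22 and 31 under junbb. It fell by 1.43 ± 0.33 (adjusted p = 0.00331) and 1.23 ± 0.33 (adjusted p = 0.00714), the second call lost without myl7:nucDsRed+ replicate 1 or junbb replicate 1 and at equal totals, and the other actb2 peaks, at 28 and 1269 bp, were not called, with differences from -0.45 to -0.10. In regeneration it was these other 2 peaks that were lower, while the 4271 bp peak held 96 and 95 (log2 difference 0.46, not called). At ctnnb1, the beta-catenin gene, a peak inside the gene, 3089 bp from its start, held 8 and 12 under junba against 27 and 30 (-1.17 ± 0.37, adjusted p = 0.0242, kept only without junba replicate 2), and its promoter held 63 and 92 against 84 and 77 (-0.07). The call at the inner ctnnb1 peak was also lost at equal totals, under quantile normalization and with only the groups compared.

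**Figure D3:**
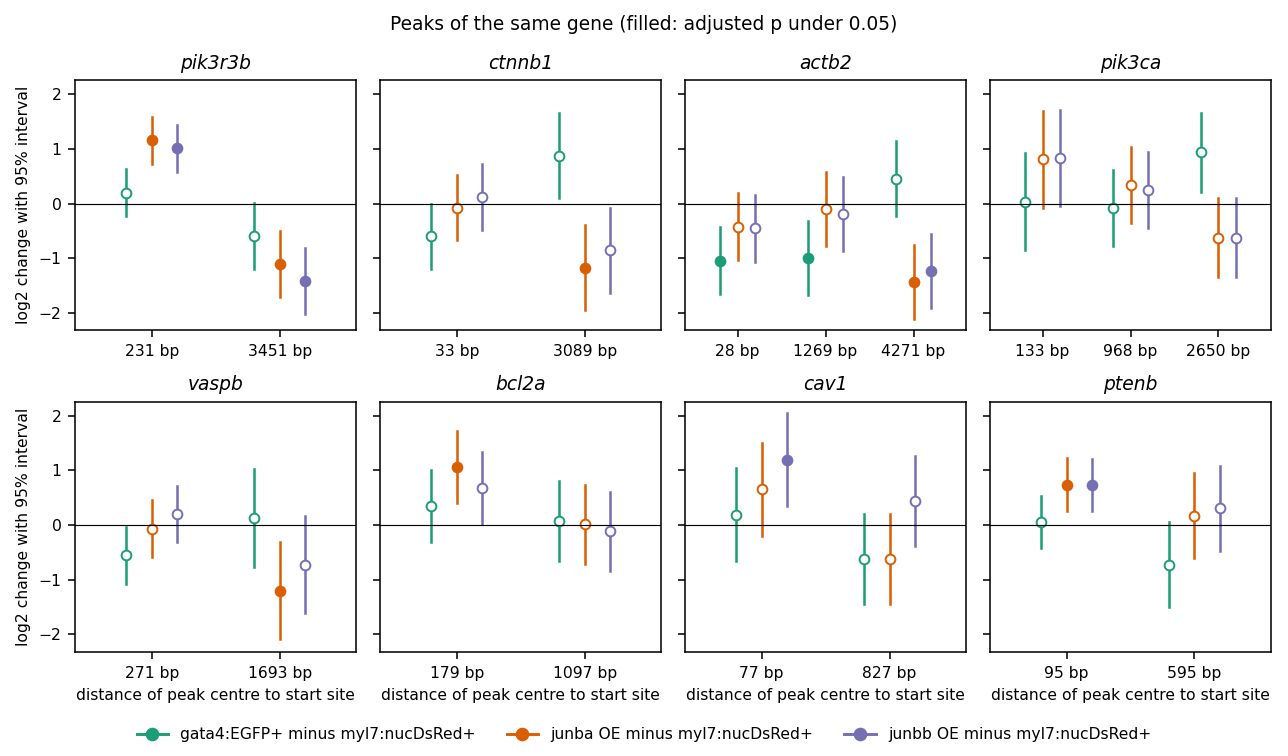
Log2 change against myl7:nucDsRed+ (y axis) with 95% intervals from limma for the tested peaks of pik3r3b, ctnnb1, actb2, pik3ca, vaspb, bcl2a, cav1 and ptenb, by distance of the peak centre from the start site (x axis), in regeneration, under junba and under junbb; filled points were called. At pik3r3b the promoter peak was called higher and the inner peak lower under junba and junbb.

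Set directly against the overexpressing cells, the regenerating cells had 5 member peaks called higher than under both junba and junbb, at vegfd, actb2, ctnnb1, pik3ca and mylk3. Of 70 members, 8 were higher and 9 lower in gata4:EGFP+ than in junba libraries (21.2% and 11.8% of all tested peaks) and 6 higher and 11 lower than in junbb libraries (21.2% and 13.8%). Among tested peaks with a gene the background ran the other way, with 8.19% higher and 16.5% lower than under junba and 8.28% and 16.4% than under junbb. All of the 5 peaks but mylk3 lie beyond 500 bp from a start, where 21.4% of all tested peaks with a gene were higher in each contrast. Of the 23 tested members there, 7 were higher than under junba and 5 than under junbb. How many of all peaks were higher in both contrasts was not counted. Libraries did not overlap at 17 members in the higher and 32 in the lower direction against junba (35.8% and 30.1% of all peaks, 18.3% and 42.4% of those with a gene) and at 14 and 33 against junbb (37.3% and 34.3%, and 18.8% and 46.3%). The vegfd peak differed by 2.99 ± 0.47 (adjusted p = 0.000142) from junba and 2.06 ± 0.47 (adjusted p = 0.00218) from junbb, from values given above and with the same limit from its filter. Since both junba libraries were at 0, the first value depends on the added 5 and is no bound. The actb2 peak at 4271 bp differed by 1.89 ± 0.33 (adjusted p = 0.000301) and 1.69 ± 0.33 (adjusted p = 0.000712). The inner ctnnb1 peak (chromosome 16, 6202522 to 6202880) held 46 and 69 in regenerating cells against 8 to 14 in the 4 overexpression libraries, differing by 2.05 ± 0.37 (adjusted p = 0.000442) and 1.73 ± 0.37 (adjusted p = 0.00153). A peak inside pik3ca, a PI3K catalytic subunit gene, 2650 bp from its start, held 62 and 71 against 16 to 23, differing by 1.56 ± 0.35 from each (adjusted p = 0.00214 and 0.00207). No library of the overexpressing groups reached the regenerating ones at vegfd, actb2, ctnnb1 or pik3ca, and the calls at actb2 and pik3ca held in every omission in both contrasts. The ctnnb1 call against junbb was lost without gata4:EGFP+ replicate 2 (adjusted p = 0.0542 at most), and the vegfd call against junbb without junbb replicate 2. The myosin light chain kinase gene mylk3, active in heart muscle, was also higher, by 0.96 ± 0.36 and 1.20 ± 0.36 (adjusted p = 0.042 and 0.0128), each lost in 2 or more omissions. Called higher than under junba alone were col2a1b (1.60), the 1693 bp vaspb peak (1.33) and pxnb (0.86), each kept in 1 of 4 omissions. The inner pik3r3b peak was called higher than under junbb alone (0.83), lost with any 1 library left out.

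Of the 9 and 11 member peaks lower in regenerating cells than under junba and junbb, 7 each were promoters. Of the 47 tested member promoters these are 14.9%, below the 19.0% and 18.2% of all tested promoters with a gene that were lower. The promoters of pik3r3b (-0.96 and -0.81 from junba and junbb), ptenb (-0.69 and -0.67), ppp1r12c (-1.08 and -0.93) and ppp1cb (-1.56 and -1.06) were called against both. The ppp1cb peak held 10 and 17 in regenerating cells against 43 and 55 under junba. Against junba, the integrin gene itga3b (-1.16 ± 0.44) and actn4, the actin crosslinker alpha-actinin 4 (-0.66 ± 0.24), were lower too. So was the 1269 bp actb2 peak (-0.90). Lower than under junbb alone were capn2b (77 bp, -1.10), cav1 (827 bp, -1.05), the second ptenb peak (595 bp, -1.04) and vav2 (-0.99). Also among these were pik3r1 (-0.83), the 637 bp actb1 peak (-0.77) and the 271 bp vaspb peak (-0.75). These calls, and that at actb2, held in at most 1 of 4 omissions. Against junba the pik3r3b call held in every omission, those of ppp1r12c and ppp1cb were lost without gata4:EGFP+ replicate 1, and those of ptenb, itga3b and actn4 were lost in 3 of 4. Against junbb the pik3r3b and ppp1r12c calls were lost without gata4:EGFP+ replicate 1 or junbb replicate 2, and those of ptenb and ppp1cb with any 1 library left out. These calls depend on scaling. Centred on promoter peaks, the lower count fell from 9 to 2 against junba and from 11 to 0 against junbb. The higher count went from 8 to 11 and from 6 to 9, and at equal totals the split against junba was 8 and 3. Over all 14776 tested peaks, centring took the lower count from 1749 to 699 and from 2038 to 852. It took the higher count from 3131 to 4496 and from 3134 to 4570, and equal totals gave 3262 and 1105 against junba. Cells of these groups were also isolated differently, so that isolation and condition cannot be told apart.

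Between junba and junbb no member peak was called, beside 0.0880% of all tested peaks, 0.0541% higher and 0.0338% lower under junba. At unadjusted p under 0.05, 1 of 70 members was higher and 3 were lower under junba, beside 596 and 898 of all 14776 tested peaks. The smallest adjusted p among the members was 0.39. The 3 lower were cav1 at 827 bp (12 and 8 under junba, 24 and 28 under junbb; log2 difference -1.06 ± 0.40), pik3r1 (70 and 73, and 107 and 128; -0.67 ± 0.26) and arhgap5, a GTPase-activating protein gene (83 and 35, and 85 and 97; -0.69 ± 0.32). For 41 of 70 members the 95% interval of the difference stayed within 2-fold in either direction, and for the rest it did not, so alike responses are not shown there. Without junba replicate 1, the 3 peaks of col2a1b, arhgap5 and vaspb (1693 bp) were called lower under junba (log2 differences -1.89, -1.26 and -1.45). These calls set junba replicate 2 alone, which has the fewest estimated reads of the 8 libraries and values of 0, 35 and 8 there, against both junbb libraries, with the spread taken from the other groups.

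With A-Fos, which blocks AP-1 binding, no member peak was called. None of the 26 tested members and 0% of the 6012 tested peaks passed adjusted p under 0.05, with or without trended and robust variance estimates. At unadjusted p under 0.05, 2 members were lower and 0 higher, beside 62 and 138 of all tested peaks. The median log2 difference was 0.11 over the members and -0.00 over all peaks. For 12 of the 26 members the 95% interval stayed within 2-fold, and the median half-width of the interval was 0.73. Scaling to equal totals moved the median of all peaks to -0.24 and that of members to -0.14.

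The 2 with unadjusted p under 0.05 were a peak at actb2 and 1 at vaspb. The actb2 peak inside the gene, 1269 bp from its start, held 27, 32 and 26 in A-Fos(+) and 44, 52 and 47 in A-Fos(-) libraries, so the groups did not overlap, and the log2 difference was -0.66 ± 0.30 (adjusted p = 1). The vaspb peak, 1701 bp from its start, held 17, 19 and 0 against 35, 19 and 27, a difference of -1.18 ± 0.52 (adjusted p = 1) in which A-Fos(+) replicate 3, the library with the fewest reads, held 0. The actb2 peak was lower in regenerating than in control cells, and values of the tables are scaled separately, so its levels are not compared across them.

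Groups did not overlap at 4 of the 26 members, 2 higher and 2 lower, beside 3.34% and 3.58% of all tested peaks and 2.71% and 3.28% of those with a gene. Besides actb2, itgav was lower in A-Fos(+) libraries, with 39, 41 and 46 against 57, 56 and 57 (log2 difference -0.39, interval -0.95 to 0.16). The promoter of gsk3b was higher, with 148, 171 and 153 against 81, 124 and 129 (0.51, interval -0.04 to 1.05), and so was that of ilk, with 24, 20 and 12 against 11, 7 and 9 (0.73, interval -0.14 to 1.60). Next in order of p came pik3r1 (0.56), ppp1cc (0.64), ppp1r12a (0.49), ctnnb1 (0.52) and pik3r3b (-0.37), whose groups overlapped. The matrix gene lamb2 had 24, 19 and 26 against 13, 24 and 23 (0.19), and the integrin gene itga2b, of thrombocytes, had 1, 10 and 12 against 21, 3 and 10 and was not tested. Summed over all 27 members, A-Fos(+) libraries held 1152, 1193 and 1099 and A-Fos(-) libraries 1046, 1131 and 1037.

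**Figure D4:**
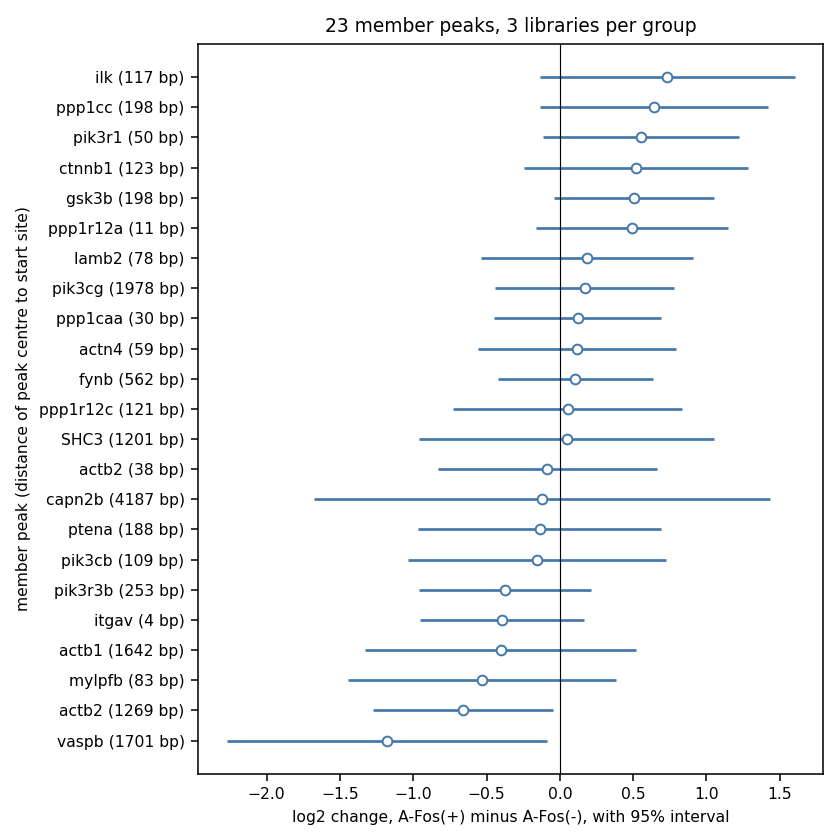
Log2 difference, A-Fos(+) minus A-Fos(-), of the tested member peaks, but for 3 not reported here, with 95% intervals from limma. Among the intervals drawn, those of vaspb and the actb2 peak at 1269 bp exclude 0, and no peak was called after adjustment.

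Elsewhere in the pathway calls also went in both directions. Of 38 peaks at 34 genes that carry both the focal adhesion and the MAPK term, 3 were higher and 6 lower in regeneration, 3 and 3 under junba and 5 and 4 under junbb. Of the 14 peaks at the genes left out by name and outside MAPK, 4 were higher and 4 lower, 4 and 5, and 6 and 4. These are 28.6% and 28.6%, 28.6% and 35.7%, and 42.9% and 28.6% of the 14. Over all tested peaks 12.3% were higher and 6.61% lower in regeneration, 10.3% and 15.9% under junba and 12.6% and 16.3% under junbb. Among tested peaks with a gene these shares were 5.26% and 7.81%, 11.3% and 9.04%, and 11.5% and 9.08%. The names left out were chosen with earlier results of these data known. The more frequent calls at the 14 peaks are therefore no result about the pathway. Filamin C at flncb, a crosslinker of muscle actin, was lower under junba (-1.45 ± 0.31, adjusted p = 0.00225) and junbb (-1.72 ± 0.31, adjusted p = 0.000395). A peak at the kinase gene pak2a, 1748 bp from its start, was higher in regeneration and under junba (1.58 ± 0.36 in each, adjusted p = 0.00411 and 0.00299) and junbb (1.46 ± 0.36, adjusted p = 0.00393). In the A-Fos table none of these 13 and 3 peaks was called.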

How the data were processed

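Accessibility was analysed from the deposited tables alone. Per the submitters' processing notes, the authors' tools were deepTools 2.5.7, DESeq, DESeq2 1.18.1, MACS2, Picard 2.18.16, STAR 2.6.1d and Trimmomatic 0.36, with builds danRer11 and GRCz11. The notes used here give no mapping filter, cut-site shift, peak threshold or background method. The deposited values are a score: whole numbers that the authors corrected for background and scaled by size factors within each table, as the table names and processing notes have it, so no count model was fitted and tables were not compared. The deposited annotation gives 1 gene and its KEGG terms for part of the peaks, the distance to the start site in bp and, per the file headers, the overlap with the gene body as a fraction. Coordinates are printed as deposited, since counting from 0 or 1 is not stated. Gene names of 2 member genes came from a table of gene IDs.

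Peaks with a mean of at least 10 over a table's libraries were tested on log2(value + 5) with limma 3.58.1 in R 4.3.3, two-sided, with trended and robust empirical Bayes, the mitochondrial peak left out. The table of 8 libraries was fitted with its 4 groups, the A-Fos table with 3 against 3, and p-values were adjusted by Benjamini-Hochberg over all tested peaks. The reads behind the values were estimated from the spacing of the values (1 read was worth 0.427 to 2.885) and are approximate. Python 3.11.15 with pandas 2.3.3 and NumPy 2.4.6 read the tables, and Matplotlib 3.10.9 drew the figures. Replicate numbers of the labels were not taken as pairs. Alternatives were other filters, pseudocounts, scalings and variance estimates, a replicate block, only the groups compared, and each library left out, where a library then alone in its group is assumed to vary like those of the other groups.

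The members, lists and tests were chosen with earlier results of these data known. The rule for named genes takes, among called member peaks without overlap between groups, up to 12 of the largest changes in each direction, fills up to 10 by adjusted p, and adds all plaque, integrin and matrix genes and the 5 highest peaks. Other phosphatase, growth factor and uncalled same-gene peaks, flncb and pak2a were chosen after their values were seen. The peaks of 3 member genes are counted in totals but not reported here. Peak sequences and motifs were not analysed here.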

Additional observations from a re-analysis of the deposited data

How the results depend on the processing

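Over the alternatives run, single member peaks kept their side of the threshold in 5770 cases, gained a call in 78 and lost a call in 265. No peak called in the main fit changed sign. A change of sign at a peak not called in the main fit was not counted apart. Main counts of member peaks higher and lower were 2 and 5 in regeneration, 8 and 9 under junba, 9 and 8 under junbb, 8 and 9 for gata4:EGFP+ minus junba, and 6 and 11 for gata4:EGFP+ minus junbb. The alternatives of the last 2 were chosen after seeing the data. At a mean of at least 30, where fewer peaks were tested, the counts were 1 and 2 in regeneration, 6 and 4 under junba, 7 and 4 under junbb, 4 and 7 against junba and 4 and 6 against junbb. Of the other settings, counts more than 1.5 times apart from the main ones are listed. The regeneration counts were 1 and 3 at a pseudocount of 1, and 4 and 8 at 20. Equal totals gave 2 lower in regeneration, 4 lower under junbb and 3 lower against junba. Centring on promoter peaks gave 4 and 3 in regeneration, 4 higher under junba, 5 higher under junbb, 2 lower against junba and 0 lower against junbb, and quantile normalization gave 9 lower in regeneration. Without trend and robust estimation, 5 were higher under junba, 3 lower against junba and 5 lower against junbb. With only the groups compared, 5 and 12 were called in regeneration, 3 higher under junba, and 11 and 19 against junbb. Counts over all tested peaks moved as well. In regeneration, main counts of 1818 and 977 of 14776 became 2825 and 1882 of 14799 with only the groups compared. Under junba 1515 higher became 917 of 13488, and against junbb 3134 and 2038 became 4433 and 2896 of 15257. The cause was not tested.

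Leaving out 1 library at a time gave 1 to 2 higher and 0 to 1 lower in regeneration, 2 to 8 and 4 to 9 under junba, 2 to 5 and 4 to 8 under junbb, 3 to 13 and 1 to 9 against junba, 3 to 5 and 0 to 6 against junbb, 0 and 0 to 3 for junba minus junbb, and 0 in both directions for A-Fos. Calls kept in all 4 omissions were 1 of 7 in regeneration, 5 of 17 under junba, 4 of 17 under junbb, 4 of 17 against junba and 2 of 17 against junbb.

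With the replicate number as a block, counts were 2 and 5 in regeneration, 8 and 9 under junba, 8 and 8 under junbb (pik3r1 lost), 0 and 0 for junba minus junbb and for A-Fos, 8 and 9 against junba and 6 and 11 against junbb. The numbers were not taken as pairs because the labels do not say whether they pair libraries. Correlations were taken over peaks between libraries of different groups, after each group's mean was subtracted, so they compare deviations and not levels. For same-numbered libraries they were -0.0323 to 0.0204 in the table of 8, and 0.280, 0.256 and 0.0823 in the A-Fos table. With 2 libraries a group, the deviations of the 2 mirror each other. By these deviations every A-Fos library correlated best with its own number, a hint from the data only. The motif description planned for peak sequences was not run. With 2 or 3 libraries a group and 129391 reads in the shallowest, the 95% interval stayed within 2-fold for 29 of 70 members in regeneration and 12 of 26 with A-Fos.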

Other observations

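Some member peaks were too low to test and are given as values. The peak of tnc, which encodes tenascin C, a matrix protein of healing tissue, lies 4273 bp from its start and held 24 and 22 in gata4:EGFP+ libraries, 11 and 8 in controls, 1 and 0 under junba and 3 and 6 under junbb. The promoter of thbs4b, a second thrombospondin gene, held 19 and 24, 2 and 13, 1 and 0, and 5 and 1 in the same order of groups. At both peaks the regenerating libraries were the highest. The promoter of col1a1a, a collagen I chain, ran the other way, with 6 and 6, 6 and 3, 12 and 8, and 17 and 21, highest under junbb. A second cav3 peak, at 608 bp, held 15 and 30 in controls and 4 to 6 in the other 6 libraries. The remaining 4, at itga2b, SHC3, badb and capn2b (4187 bp), held 2 to 6, 1 to 8, 5 to 23 and 0 to 18.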
